A study of Mus musculus with 18 samples.

Results

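The mouse genes described here carry symbols made of Zfp and a number, the older naming of mouse zinc-finger proteins. They were chosen by symbol from the annotation of the first of a pair of Affymetrix arrays, called set A, with 1 mouse symbol required per probe set. Zfp36, Zfp36l1 and Zfp36l2 were left out; they encode proteins with another finger type that bind AU-rich messenger RNA. This gave 170 genes on 248 probe sets, out of 12393 genes with a single symbol and 22626 probe sets on set A. The family was taken up because Zfp235, Zfp329 and Zfp30 lay among the largest falls at 1 h of KCl on these same arrays, so the 1 h values below, including which probe sets passed the threshold, are given as a description that supports nothing. A probe set was tested when its mean signal was not among the lowest 25% of the array, which left 187 Zfp probe sets of 136 genes, out of 16969 probe sets tested on set A.

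Primary cortical neurons from mice were grown for 7 days and then depolarized with raised KCl for 0, 1 or 6 h, which opens L-type calcium channels in the neuronal membrane. The sample labels give 55 mM KCl and the series text 50 mM, and the labels speak of postnatal day 0 as well as of embryonic cultures. Strain, genotype and sex were not given, each time has 3 arrays of each set, and the series text speaks of 3 independent experiments. Neither set includes cultures kept for 1 or 6 h without added KCl, so hours in the experiment and KCl cannot be told apart.

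Most mouse Zfp genes encode C2H2 proteins, in which tandem fingers each hold a zinc ion between a pair of cysteines and a pair of histidines and read a few bases of DNA. Many also carry a KRAB domain, which recruits the corepressor Trim28 and through it the histone methyltransferase Setdb1, heterochromatin protein and histone deacetylases, and silences retroelements and imprinted regions. The genes lie in clusters on a few chromosomes, and a minority of the proteins bind RNA, ribosomes or ubiquitin pathway partners instead of DNA.

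Signals of the Zfp probe sets spanned a wide range, with a median of 221 units at 0 h, 202 at 1 h and 193 at 6 h. Probes differ in affinity, so the signals of different probe sets do not give the order of the transcripts. Background was taken as 74.8 units, the 95th percentile of 27 control probe sets for bacterial transcripts. The number of tested Zfp probe sets with a mean below it was 10 at 0 h, 20 after 1 h and 18 after 6 h of KCl. Zfp members with the highest signal at 0 h were Zfp428 at 4251 ± 793 units, Zfp704 at 3171 ± 300, Zfp622 at 2203 ± 380, Zfp46 at 1735 ± 273 and Zfp207 at 1143 ± 223 (SD, n = 3 arrays each). The dimmest at 0 h were Zfp991 at 51 ± 36.8 units, Zfp605 at 55.5 ± 16.4 and Zfp612 at 55.7 ± 10.7, all below background. The other 61 probe sets were too dim to test, and 52 of them had means below background at all 3 times. Untested were all probe sets of 34 genes, among them Zfp42, a marker of pluripotent cells, with 24.9 units at 0 h, and Zfp503, a repressor known from the developing striatum, with 51.9 and 46.4 units on its probe sets.

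More Zfp transcripts lay lower than higher after KCl. On the log2(signal + 16) scale the median Zfp change at 1 h was -0.17, against -0.01 over all tested probe sets, and 64.7% of Zfp values were negative, against 51.6%. At 6 h the Zfp median was -0.18, against -0.05 over all, and 63.1% of Zfp values were negative, against 54.2%. Between 1 h and 6 h the Zfp median was -0.00, against -0.05 over all. The interquartile range of Zfp changes at 6 h ran between -0.54 and 0.19, and that of all probe sets between -0.38 and 0.30. In the 3 same-numbered array pairs the Zfp median at 6 h was -0.13, -0.15 and -0.22, against -0.06, -0.02 and -0.07 over all probe sets. The comparisons at 1 h and 6 h share the 0 h arrays, so these medians are not independent of each other. In cultures measured as a whole, fewer cells with a transcript and less RNA per cell cannot be told apart.

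**Figure D1:**
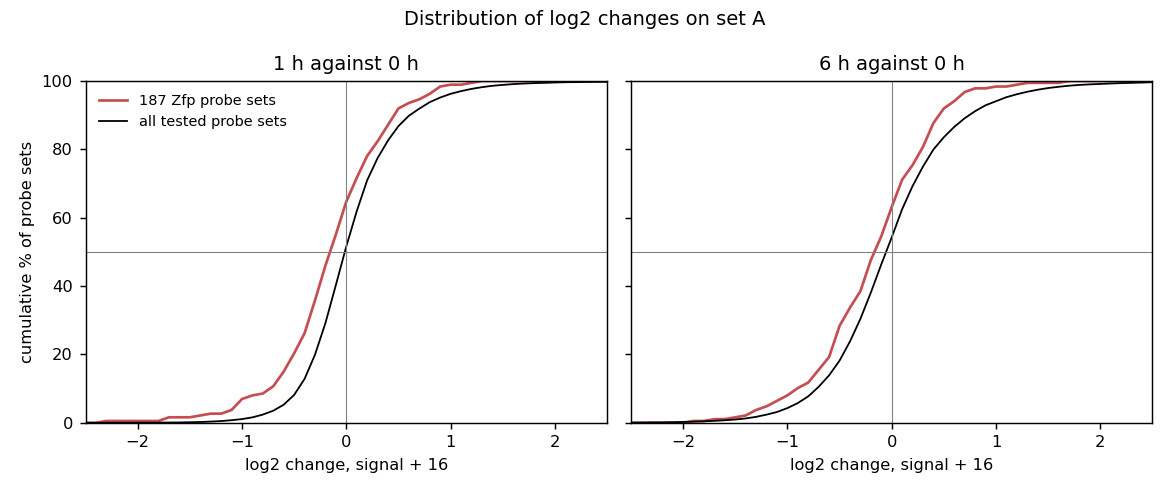
Cumulative percent of probe sets (vertical axis) at or below each log2 change in signal + 16 (horizontal axis), for 1 h against 0 h and for 6 h against 0 h, with the 187 Zfp probe sets in red and all 16969 tested probe sets in black. The Zfp curve lies to the left of the other at the middle, with medians of -0.17 at 1 h and -0.18 at 6 h, where those of all probe sets are -0.01 and -0.05.

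The counts past the test, limma with Benjamini-Hochberg adjustment over all tested probe sets and a threshold of 0.05, were as follows. At 1 h 6 Zfp probe sets were lower and 2 higher, which is 3.21% and 1.07% of the 187. Over all tested probe sets 0.913% were lower and 3.25% higher at that time, and since that comparison led to the choice of the family, nothing is read from the difference. At 6 h against 0 h 25 Zfp probe sets fell (13.4%) and 3 rose (1.60%), against a background of 11.7% falling and 10.4% rising. The share of Zfp probe sets that fell at 6 h was thus near that of all probe sets, while the share that rose was smaller. At 6 h against 1 h 8 fell (4.28%) and 4 rose (2.14%), against 6.51% and 5.07% over all.

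Arrays that do not overlap were also counted, on the same signals, so these counts are no separate support. Those at 1 h come from the comparison that led to the choice of the family, and nothing is read from them. All 3 arrays at 1 h lay below all 3 at 0 h in 38 Zfp probe sets (20.3%) and above them in 10 (5.35%), where the background was 10.8% and 11.4%. All 3 arrays at 6 h lay below those at 0 h in 50 Zfp probe sets (26.7%) and above them in 12 (6.42%), where the background was 21.8% and 17.5%. The difference between the family and the array was not tested, since the family was chosen with these data known.

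The genes that drew attention to the family were Zfp235, Zfp329 and Zfp30, all on chromosome 7. Zfp235 (probe set 1449329_at) read 195, 190 and 168 units at 0 h, 15.1, 35.8 and 21.6 at 1 h, and 63.4, 126 and 45 at 6 h. All 3 of its arrays at 1 h were below background and below every array at 6 h, and the 6 h arrays were again below those at 0 h. Against the background level the signal at 1 h was at least 2.20-fold lower. Zfp329 (1431830_at) read 263, 272 and 250 units at 0 h, 71.2, 62.6 and 67 at 1 h, and 84.5, 162 and 166 at 6 h. The 3 times did not overlap, the 1 h arrays were below background, and the level at 1 h was at least 3.06-fold lower than at 0 h. A second Zfp329 probe set was dim, with means of 80.9, 46 and 55.5 units at 0, 1 and 6 h and overlapping arrays. Zfp30, known in mice as a regulator of neutrophil recruitment to the lung, read 211, 168 and 158 units at 0 h, 74.8, 16.6 and 52.1 at 1 h, and 198, 75.8 and 103 at 6 h. Its 1 h arrays lay at or below background, so the size of its fall is uncertain. Zfp30 passed at 1 h (limma adjusted p = 0.0421), but in only 2 of 9 fits that left out 1 array. Its arrays at 6 h were spread over most of the range and overlapped those at 0 h.

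Promoters of 4 genes that the results turn on are printed to let the sequences be set beside the signals. Each is 250 bases before to 50 after the start of the gene in RefSeq on GRCm38.p6, read 5′ to 3′ on the strand of the gene. Zfp235 lies at chr7:24132122-24132421 on the plus strand, Zfp329 at chr7:12818811-12819110 on the minus strand, Zfp948 at chr17:21566728-21567027 on the plus strand and Zfp318 at chr17:46383516-46383815 on the plus strand. Capitals mark matches on either strand to motifs of activity-regulated factors or of a factor common at zinc-finger promoters, all of them spelled out after the sequences. Zfp235 and Zfp329 led to the choice of the family, Zfp948 rose at both times, and Zfp318 had the lowest adjusted p among the falls at 6 h.
Zfp235: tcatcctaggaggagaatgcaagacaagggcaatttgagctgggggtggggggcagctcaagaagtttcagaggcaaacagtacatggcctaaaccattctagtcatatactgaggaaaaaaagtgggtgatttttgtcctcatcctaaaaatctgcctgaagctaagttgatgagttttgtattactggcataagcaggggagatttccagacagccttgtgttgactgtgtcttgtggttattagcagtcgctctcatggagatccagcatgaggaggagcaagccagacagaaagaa
Zfp329: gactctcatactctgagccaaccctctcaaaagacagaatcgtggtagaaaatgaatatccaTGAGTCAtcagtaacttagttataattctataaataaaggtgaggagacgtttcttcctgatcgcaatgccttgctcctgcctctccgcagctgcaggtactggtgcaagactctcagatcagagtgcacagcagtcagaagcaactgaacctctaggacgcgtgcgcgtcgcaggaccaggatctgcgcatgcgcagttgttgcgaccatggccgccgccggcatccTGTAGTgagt
Zfp948: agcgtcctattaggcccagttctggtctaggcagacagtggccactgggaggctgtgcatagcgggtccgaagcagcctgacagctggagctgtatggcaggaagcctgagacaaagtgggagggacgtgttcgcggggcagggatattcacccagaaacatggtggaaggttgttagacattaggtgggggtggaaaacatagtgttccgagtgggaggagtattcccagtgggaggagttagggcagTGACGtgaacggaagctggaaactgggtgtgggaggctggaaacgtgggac
Zfp318: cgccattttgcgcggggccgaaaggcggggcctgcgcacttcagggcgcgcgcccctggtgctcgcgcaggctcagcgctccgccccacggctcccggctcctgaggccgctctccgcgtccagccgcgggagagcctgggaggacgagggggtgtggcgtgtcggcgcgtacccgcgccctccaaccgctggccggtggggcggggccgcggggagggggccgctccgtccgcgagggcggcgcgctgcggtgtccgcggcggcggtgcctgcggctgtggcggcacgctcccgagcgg
The motifs searched were TGACGTCA, the full CREB site called CRE, TGACG, its core, which also matches inside the full site, TGANTCA for AP-1, GCGTGGGCG for EGR proteins, and ACTACA, the start of a ZNF143 site. The Zfp329 window holds an AP-1 match 188 bases before the start and an ACTACA match 40 bases after it. The Zfp948 window holds the CRE core 1 base before the start. The windows of Zfp235 and Zfp318 hold none of these letters, as do those of Zfp30 and Zfp275, and they differ in CpG content, with 1 CpG for Zfp235 and 49 for Zfp318.

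Promoter windows were matched for 137 of the 170 Zfp genes. ACTACA was present in 39 of them, or 28.5%, where 11.4% of the windows of all set A genes and 11.8% of all gene windows held it. The CRE core was in 45 (32.8%), where set A genes had 31.4% and all genes 23.0%. The full CRE was in 1 (0.730%), where set A genes had 3.00% and all genes 2.03%, and AP-1 was in 7 (5.11%), where the shares were 7.69% and 8.97%. The EGR letters were in none of the 137, and in 1.24% of set A genes and 0.707% of all genes. Of the genes that fell at 6 h and had a window, 5 of 20 held ACTACA, 5 the CRE core and 3 the AP-1 letters.

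**Figure D2:**
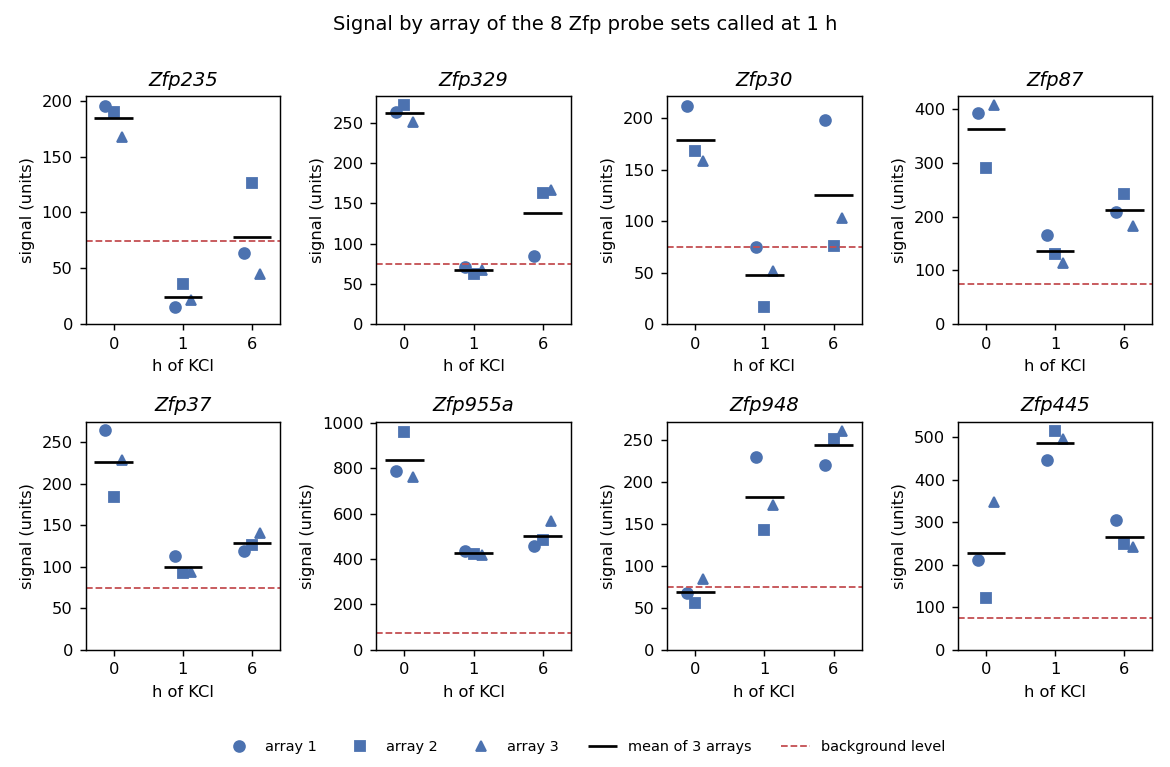
Signal units on each array (vertical axis, linear) at 0, 1 and 6 h of KCl (horizontal axis) for the 8 Zfp probe sets past the test at 1 h, with markers for the arrays numbered 1 to 3, a bar for their mean and a dashed line for the background of 74.8 units. The 1 h arrays of Zfp235 and Zfp329 lie below the background line, and those of Zfp948 and Zfp445 lie above all their 0 h arrays.

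Another 3 Zfp genes were lower at 1 h. Zfp87 (chromosome 13) read 392, 290 and 407 units at 0 h, 166, 130 and 114 at 1 h, and 209, 243 and 183 at 6 h. Zfp37, a KRAB protein of neurons, read 265, 184 and 228 at 0 h, 113, 92 and 93.4 at 1 h, and 118, 126 and 141 at 6 h. Zfp955a read 791, 961 and 763 at 0 h, 434, 424 and 418 at 1 h, and 457, 485 and 570 at 6 h. In all 3 the arrays at 1 h formed a tight group below those at 0 h, and the 6 h arrays lay between the 2 other times without overlap. Their log2 changes at 1 h were -1.31 ± 0.22 (SE) for Zfp87, -1.06 ± 0.25 for Zfp37 and -0.95 ± 0.15 for Zfp955a. The brighter Zfp37 probe set did not move with the other, at 178 ± 50.9 units at 0 h, 176 ± 63.7 at 1 h and 230 ± 35.2 at 6 h.

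Zfp948 and Zfp445 were the genes higher at 1 h. Zfp948 (chromosome 17) read 68.2, 55.4 and 84.9 units at 0 h, 231, 143 and 173 at 1 h, and 221, 251 and 262 at 6 h, so 2 of its 3 arrays at 0 h were below background and all later arrays were higher. Zfp445, which protects parental imprints in mouse embryos, read 211, 123 and 349 units at 0 h, 448, 515 and 495 at 1 h, and 306, 250 and 242 at 6 h on probe set 1427254_at. Its 1 h arrays lay above all others, while the 6 h arrays overlapped those at 0 h. The brighter Zfp445 probe set had 652 ± 227 units at 0 h, 1051 ± 91.7 at 1 h and 869 ± 73.1 at 6 h, a log2 change of 0.73 ± 0.21 at 1 h that did not pass.

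Below these stood genes that kept 1 direction in all 3 same-numbered pairs at 1 h without passing the test. On the low side they were Zfp94 (log2 change -1.50 ± 0.54), Zfp472 (-1.12 ± 0.34), Zfp93 (-1.11 ± 0.42), Zfp568 (-1.06 ± 0.48), Zfp33b (-1.04 ± 0.47) and Zfp14 (-1.01 ± 0.54). On the high side they were Zfp354c (0.84 ± 0.30), Zfp280c (0.78 ± 0.28), Zfp109 (0.63 ± 0.34), Zfp148 (0.49 ± 0.23), Zfp275 (0.41 ± 0.16), Zfp207 (0.28 ± 0.15) and Zfp90 (0.19 ± 0.20), with Zfp605 at least 1.24-fold higher than its 0 h arrays, which were all below background. Single arrays made some of these values. Zfp33b read 318, 392 and 329 units at 0 h and 45.8, 267 and 292 at 1 h, with 1 array far below the others. Zfp472 read 164, 156 and 121 units at 0 h, 30, 81 and 75.3 at 1 h, and 115, 140 and 166 at 6 h, the last overlapping 0 h.

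After 6 h the falls were spread over 24 Zfp genes, of which Zfp318, Zfp239 and Zfp362 had the lowest adjusted p values. Zfp318, a nuclear protein that B cells need to make IgD, had 129, 193 and 177 units at 6 h, against 478, 472 and 549 at 0 h, on probe set 1421479_at. The groups were far apart, and the 1 h arrays, at 571, 455 and 374, still overlapped those at 0 h. The log2 change at 6 h was -1.51 ± 0.21 (2.86-fold lower, limma adjusted p = 0.000272). Another Zfp318 probe set fell by 1.15 on the log2 scale (adjusted p = 0.00616), while the remaining 2 had changes of -0.03 ± 0.23 and -0.43 ± 0.31 that did not pass. The probe sets of this gene thus did not give 1 answer.

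Zfp239, which binds DNA and RNA, had 218, 271 and 168 units at 6 h, against 607, 605 and 549 at 0 h, a change of -1.38 ± 0.19 (limma adjusted p = 0.000344). Its 1 h arrays, at 328, 363 and 429, lay between the 2 groups with no overlap. Zfp362, a relative of the Drosophila genes rotund and squeeze, had 619, 517 and 557 units at 6 h, against 1076, 1168 and 1032 at 0 h (-0.93 ± 0.14, adjusted p = 0.000432). It too was intermediate at 1 h, at 799, 950 and 896 units.

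**Figure D3:**
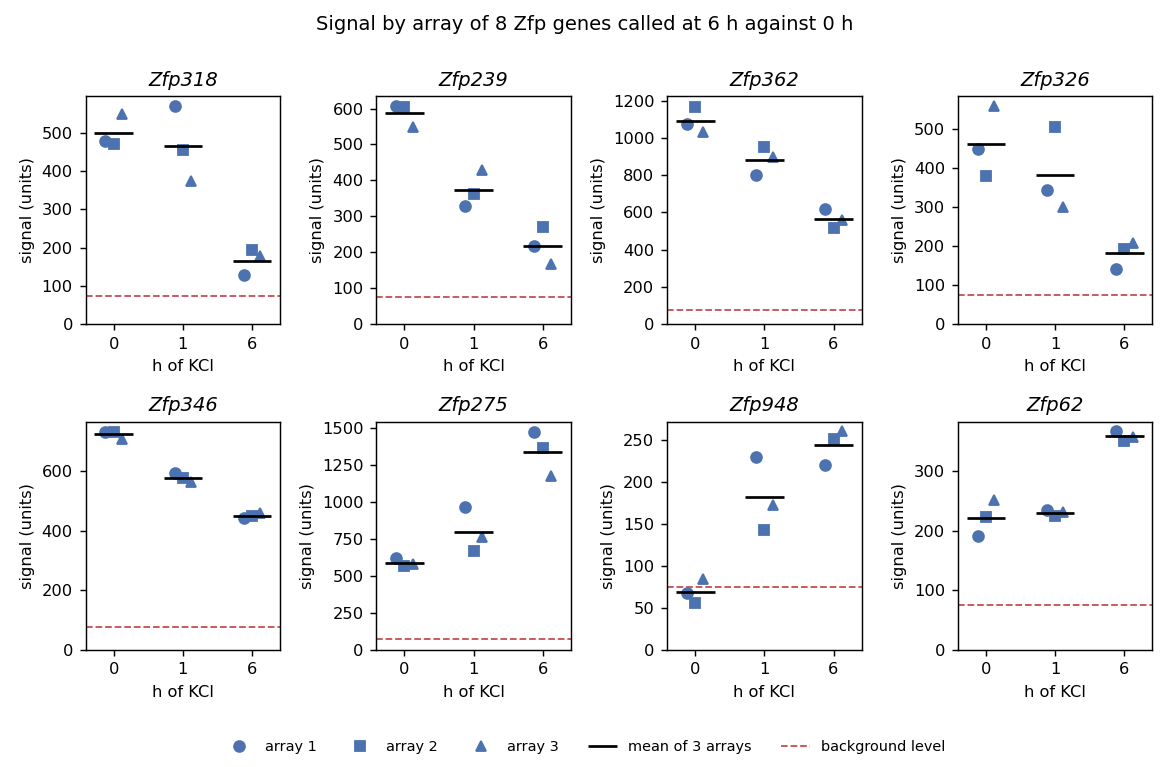
Signal units on each array (vertical axis, linear) at 0, 1 and 6 h of KCl (horizontal axis) for 8 Zfp genes past the test at 6 h against 0 h, with markers for the arrays numbered 1 to 3, a bar for their mean and a dashed line for the background of 74.8 units. The 6 h arrays of Zfp318, Zfp239, Zfp362, Zfp326 and Zfp346 lie below all their 0 h arrays, and those of Zfp275, Zfp948 and Zfp62 lie above.

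Zfp213 had the most negative fitted change at 6 h, with 125, 129 and 20.2 units at 6 h, against 331, 342 and 305 at 0 h. The 6 h arrays were all lower, 1 of them below background, and the log2 change was -1.92 ± 0.44 (limma adjusted p = 0.00756), or -1.26 (adjusted p = 0.00685) without that array, array 3. Zfp467, a nuclear partner of Stat3, had 120, 88.3 and 25.4 units at 6 h, against 204, 206 and 183 at 0 h (-1.35 ± 0.38, adjusted p = 0.0235). Zfp94 had 23.1, 56.1 and 67.5 units at 6 h, all below background, against 183, 249 and 141 at 0 h, which makes it at least 2.23-fold lower (adjusted p = 0.038). These 3 genes have in common that at least 1 array at 6 h was at or below background, so the size of the change is less certain than for the brighter genes.

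Zfp932, Zfp810, Zfp764 and Zfp160 complete the 10 genes named for their fitted falls. Zfp932 had 106, 140 and 113 units at 6 h, against 296, 228 and 378 at 0 h (-1.20 ± 0.27, limma adjusted p = 0.00743). Zfp810 had 179, 175 and 172 units at 6 h, against 362, 473 and 337 at 0 h (-1.07 ± 0.23, adjusted p = 0.0051). At 1 h Zfp932 averaged 255 ± 94.9 and Zfp810 340 ± 107 units, with arrays overlapping those at 0 h. Zfp764 had 70.9, 83.6 and 120 units at 6 h, against 195, 201 and 169 at 0 h (-0.95 ± 0.27, adjusted p = 0.0234), on a probe set whose suffix marks possible cross-hybridization. The Zfp764 array at 70.9 units was below background, so the size of this fall is less certain too. Zfp160 had 101, 93.7 and 136 units at 6 h, against 266, 255 and 165 at 0 h (-0.94 ± 0.28, adjusted p = 0.029).

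Of the list of RNA, ribosome and ubiquitin proteins, which does not hold Zfp239, 3 genes fell at 6 h. Zfp326, a subunit of the DBIRD complex that couples transcript elongation to splicing, had 142, 193 and 209 units at 6 h, against 448, 378 and 558 at 0 h (-1.27 ± 0.23, limma adjusted p = 0.0021). Zfp346, a nuclear protein that binds double-stranded RNA, had 442, 448 and 460 units at 6 h, against 732, 731 and 708 at 0 h. Its 1 h arrays, at 594, 575 and 565, made a middle step with no overlap, and the change at 6 h was -0.67 ± 0.13 (adjusted p = 0.0032). Zfp385a, which binds RNA and is required in mice for transport of a calcium channel transcript in Purkinje cells, had 374, 380 and 353 units at 6 h, against 610, 627 and 474 at 0 h (-0.60 ± 0.16, adjusted p = 0.0194). A second Zfp346 probe set did not share the fall, with 324 ± 71.6 units at 6 h, against 257 ± 59.5 at 0 h.

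The other genes of RNA, ribosome and ubiquitin pathways on the list did not pass at either time. At 6 h the changes on the brightest probe set were 0.22 ± 0.14 for Zfp622, a factor of ribosome assembly, and -0.03 ± 0.21 for Zfp598, a ubiquitin ligase of stalled ribosomes. They were 0.31 ± 0.15 for Zfp207, a spindle assembly protein, 0.08 ± 0.13 for Zfp106, an RNA-binding protein needed by motor neurons, 0.10 ± 0.36 for the nucleolar Zfp330, and -0.19 ± 0.21 for the ubiquitin ligase Zfp91. Of the 16 probe sets of these 9 genes, 3 fell and none rose at 6 h, where 11.7% of all tested probe sets fell and 10.4% rose.

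Of the genes for imprinting and retroelement silencing, Zfp57 fell. Zfp57, which keeps DNA methylation at imprinted regions, had 474, 420 and 323 units at 6 h, against 740, 830 and 480 at 0 h (-0.71 ± 0.22, limma adjusted p = 0.0375). The highest array at 6 h lay just below the lowest at 0 h. Zfp568, which silences a placental Igf2 transcript, had a change of -0.78 ± 0.48, Zfp281, a factor of pluripotent cells, -0.24 ± 0.29, and Zfp445 0.46 ± 0.21, none of which passed at 6 h.

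None of the 5 tested Zfp genes on the neural development list passed at either time, over 11 probe sets, and Zbtb18, which the list also holds, is given with the Zbtb family. The shares over all tested probe sets were 0.913% falling and 3.25% rising at 1 h, and 11.7% and 10.4% at 6 h. With 11 probe sets, an absence of calls cannot be told apart from these shares. By limma's unadjusted p, 2 of the 11 at 1 h and 1 at 6 h lay under 0.05. Zfp703, a repressor that works with Groucho proteins, had 190, 259 and 261 units at 6 h, against 376, 346 and 337 at 0 h, without overlap but short of the threshold (-0.56 ± 0.20, limma adjusted p = 0.0587). Zfp423, a factor of cerebellar and olfactory development, had 22.7, 13.3 and 60.7 units at 6 h, against 83.9, 129 and 97.3 at 0 h, without overlap. The 6 h arrays were all below background, which makes Zfp423 at least 1.30-fold lower, short of the threshold (limma adjusted p = 0.165). Its 1 h arrays, at 219, 10.5 and 55, were spread beyond the range of both other times. Zfp521, which drives neural fate in embryonic stem cells, had a change of -0.00 ± 0.34, Zfp292 -0.26 ± 0.20, and Zfp24, needed for myelination, 0.27 ± 0.18. Zfp110, a partner of the p75 neurotrophin receptor, had changes of -0.19 to -0.63 at 6 h on its 3 probe sets, and none passed. Its relative Zfp369 was too dim to test, at 7.19 units at 0 h. Among general transcription factors, Zfp148, which binds GC-rich promoters, ranged over its 4 probe sets from -0.43 to 0.90 at 6 h, and Zfp64 and Zfp90 had -0.33 ± 0.20 and 0.31 ± 0.20, with none past the test.

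The remaining falls at 6 h included the 2 brightest members. Zfp428 had 2835, 2617 and 2515 units at 6 h, against 4742, 4674 and 3335 at 0 h (-0.66 ± 0.14, limma adjusted p = 0.00505). Zfp704 had 1600, 1693 and 2299 units at 6 h, against 3416, 3259 and 2836 at 0 h (-0.78 ± 0.16, adjusted p = 0.00426). Zfp644, a partner of the histone methyltransferases Ehmt1 and Ehmt2, fell on 1 of 3 probe sets (-0.80 ± 0.25, adjusted p = 0.0375), and it is the only fall whose 6 h and 0 h arrays overlapped. Zfp955a and Zfp87 were still lower at 6 h (-0.72 ± 0.15 and -0.73 ± 0.22), as was Zfp329 (-0.90 ± 0.28). The others were Zfp202 (-0.76 ± 0.26), Zfp651 (-0.56 ± 0.14), Zfp532 (-0.56 ± 0.18) and Zfp358 (-0.51 ± 0.15). The other Zfp358 probe set went the opposite way, with a change of 0.71 that did not pass.

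Only 3 Zfp genes rose at 6 h on set A, Zfp948, Zfp275 and Zfp62. Zfp948 had a log2 change of 1.62 ± 0.26 (limma adjusted p = 0.000928), whose size is uncertain because its mean at 0 h, 69.5 units, was below background. Zfp275, on the X chromosome, had 1473, 1365 and 1174 units at 6 h, against 620, 570 and 580 at 0 h (1.15 ± 0.16, adjusted p = 0.000268). Its 1 h arrays, at 966, 666 and 766, stood between the other times without overlap, and it was the brightest of the 3. Zfp62 had 368, 351 and 358 units at 6 h, against 191, 224 and 252 at 0 h (0.66 ± 0.18, adjusted p = 0.0187), and its 1 h arrays, at 236, 224 and 232, lay within the 0 h range. The dimmer Zfp62 probe set had a change of 0.49 ± 0.31 that did not pass.

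**Figure D4:**
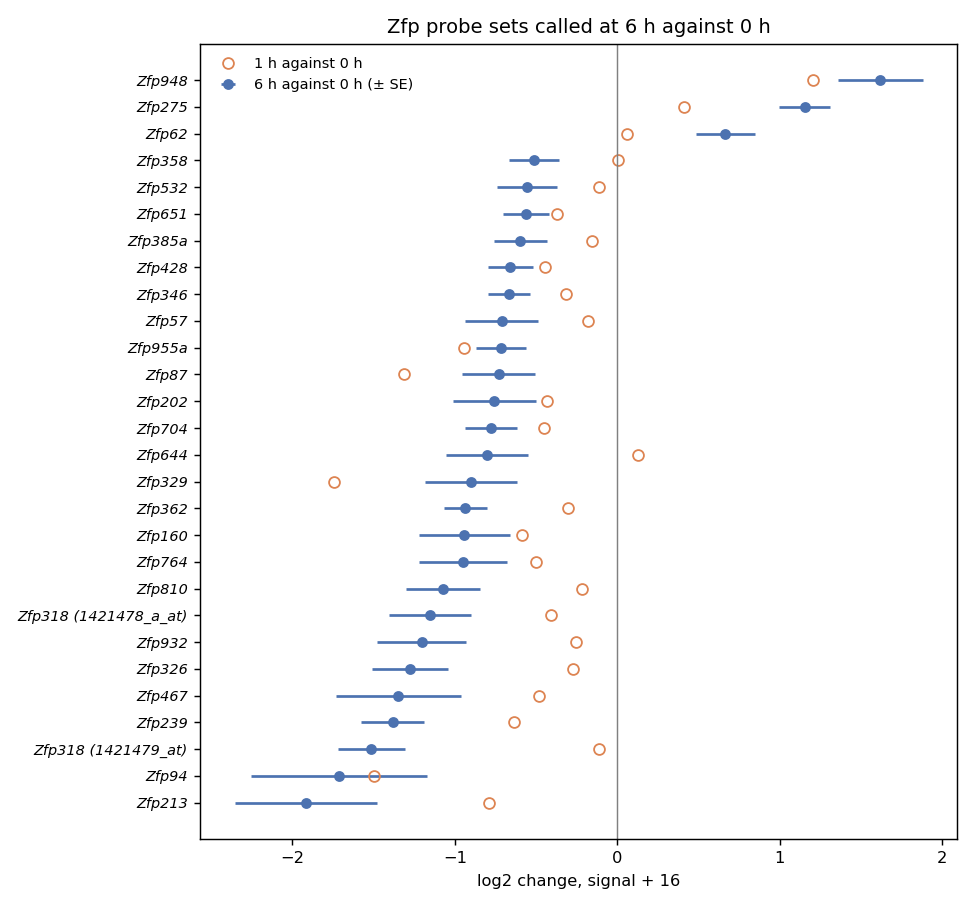
Log2 change in signal + 16 (horizontal axis) at 6 h against 0 h for the 28 Zfp probe sets past the test, 1 per line, as filled points with bars of 1 SE, and at 1 h against 0 h as open circles. Zfp948, Zfp275 and Zfp62 lie to the right of 0 and the 25 others to the left, down to -1.92 for Zfp213, where the point of Zfp94 stands for a fall of at least 2.23-fold, with the open circles of Zfp87, Zfp329 and Zfp955a farther left than their filled points.

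Set against 1 h, the 6 h arrays showed later falls and a few rises. The log2 change was -1.40 ± 0.21 for Zfp318 (limma adjusted p = 0.000983), -0.999 ± 0.23 for Zfp326 (adjusted p = 0.0161) and -0.63 ± 0.14 for Zfp362 (adjusted p = 0.00983). Zfp932 (-0.95 ± 0.27), Zfp644 (-0.93 ± 0.25), Zfp810 (-0.85 ± 0.23), Zfp239 (-0.74 ± 0.19) and Zfp358 (-0.51 ± 0.15, on the probe set that fell against 0 h) made up the 8 falls. The rises were Zfp322a, Zfp275 (0.74 ± 0.16, adjusted p = 0.00887), Zfp334 and Zfp62. Zfp322a had 268, 287 and 287 units at 6 h, against 133, 162 and 173 at 1 h (0.79 ± 0.20, adjusted p = 0.0226), and it read 189, 184 and 200 at 0 h, above its 1 h arrays. Zfp334 had 583, 620 and 704 units at 6 h, against 420, 460 and 354 at 1 h (0.61 ± 0.18, adjusted p = 0.0467), while its 0 h arrays, at 718, 473 and 516, overlapped those at 6 h. These comparisons share the 1 h or 0 h arrays with the one that led to the choice of the family.

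The falls depended in part on single arrays. Of the 28 probe sets past the test at 6 h, 14 passed in each of 9 fits that left out 1 array, namely those of Zfp239, Zfp346, Zfp704, Zfp275, Zfp326, Zfp428, Zfp932, Zfp213, Zfp955a, Zfp362, Zfp948 and Zfp810 and both of Zfp318. The number past the test was 16 without array 1 of 0 h and 16 without array 2 of 6 h, and at least 19 without any 1 of the others. At 1 h 4 of the 8 passed in all 9 such fits, those of Zfp87, Zfp329, Zfp955a and Zfp235. Zfp948 passed in 5 of the 9, Zfp30 in 2, and Zfp37 and Zfp445 in 1 each. The count at 1 h was 4 or 5 without array 1 or 2 of 0 h, any 1 array of 1 h, or array 2 or 3 of 6 h. At 6 h against 1 h only Zfp275 and Zfp318, of 12, passed in all 9. There the count was between 4 and 7 without any 1 of the 6 arrays at 1 h and 6 h.

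RNA quality measures moved with time on the same arrays. The ratio of 5′ to 3′ signal for Actb was 0.391 ± 0.122 at 0 h, 0.669 ± 0.0496 at 1 h and 0.574 ± 0.0204 at 6 h (SD, n = 3 arrays each), with an exact permutation p = 0.1 for both later times against 0 h, the smallest that 3 arrays against 3 allow. For Gapdh it was 0.859 ± 0.195, 1.17 ± 0.103 and 1.21 ± 0.0427 at 0, 1 and 6 h. With the Gapdh ratio as a covariate none of the Zfp probe sets passed limma at 1 h, where 14 had an unadjusted p under 0.05, and 3 passed at 6 h, Zfp318 (-1.82), Zfp326 (-1.97) and Zfp275 (1.26). The Zfp medians in that fit were -0.21 at 1 h and -0.19 at 6 h, near those without the covariate. The medians over all tested probe sets moved to -0.06 and -0.12, from -0.01 and -0.05 without it, so the family lay less far from them at 6 h. Over all tested probe sets the calls dropped too, to 61 higher and 1 lower at 1 h, against 552 and 155 without it, and to 275 and 195 at 6 h, against 1772 and 1981. The ratio and the time cannot be fully told apart in 9 arrays, and its part in the Zfp changes was not tested otherwise.

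Markers of the cells in culture were checked on the brightest probe set of each gene. All 8 neuronal markers, such as Tubb3 and Snap25, were above background at every time, with summed signals of 43666 to 45805 units at 0 h, 44371 to 49504 at 1 h and 46583 to 50485 at 6 h. Against 0 h, 2 of them rose at 1 h, and 3 rose and 1 fell at 6 h. Astrocyte markers were present too, with sums over 8 genes of 29521 to 34094 at 0 h, 22629 to 27177 at 1 h and 26149 to 28607 at 6 h, so that the later arrays lay below those at 0 h. Against 0 h, 1 astrocyte gene fell at 1 h and 2 at 6 h, and none rose on its brightest probe set. Of all 14 tested astrocyte probe sets, 2 fell at 1 h, and 3 fell and 1 rose at 6 h. Of all 11 tested neuronal probe sets, 4 rose at 1 h, and 6 rose and 1 fell at 6 h. Over all tested probe sets 0.913% fell and 3.25% rose at 1 h, and 11.7% fell and 10.4% rose at 6 h. Sums were lower for the oligodendrocyte lineage (7972 to 10368 units at 0 h), progenitors (3022 to 4033), microglia (740 to 1091) and vascular cells and fibroblasts (467 to 499). Progenitor sums were 2455 to 3210 units at 1 h and 2650 to 3480 at 6 h, overlapping those at 0 h. Among these lists 1 progenitor gene rose at 6 h, and 1 gene of the vascular and fibroblast list fell. Below background at 0 h were Slc1a2, Mog, C1qa, Cldn5 and Dcn. Whether cell makeup had a part in the Zfp changes was not tested.

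Split by mean signal over all 9 arrays, the Zfp values lay lowest, relative to all probe sets, among the dim ones. All tested probe sets were put in order of mean signal and cut into 4 bins of equal size. In the dimmest bin the 63 Zfp members had a median of -0.30 at 6 h, against -0.05 for all probe sets there. In the second bin the values were -0.06 for 59 Zfp probe sets and -0.05 for all, in the third -0.19 for 53 and -0.09, and in the brightest 0.04 for 12 and -0.03. The share that fell at 6 h was 4.76% of Zfp probe sets in the dimmest bin, 11.9%, 22.6% and 25% in the next 3, against 2.43%, 8.42%, 17.8% and 18% of all. The share that rose was 0%, 3.39%, 0% and 8.33% of Zfp probe sets in these bins, against 2.59%, 8.63%, 14% and 16.6% of all.

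**Figure D5:**
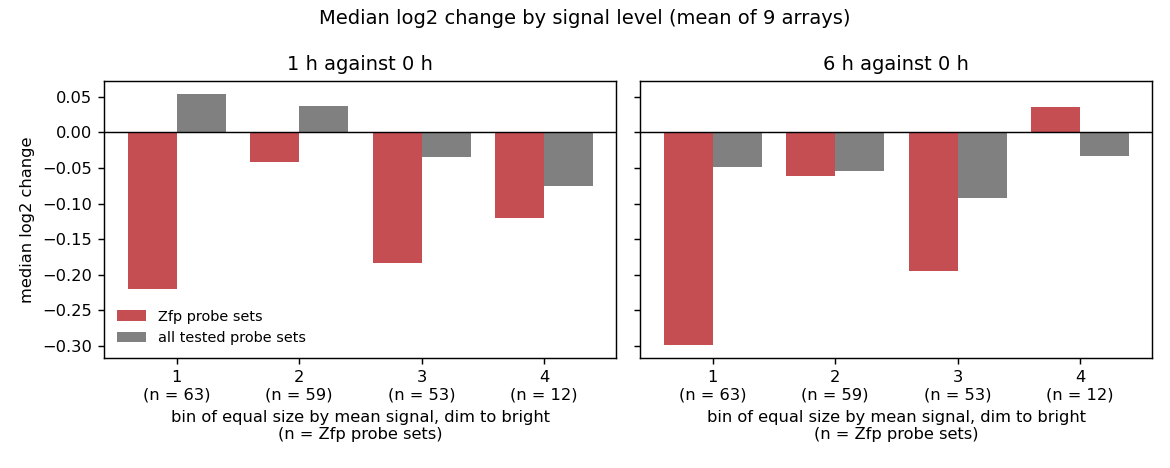
Median log2 change in signal + 16 (vertical axis) in 4 equal bins of tested probe sets ordered by mean signal over 9 arrays (horizontal axis, dim to bright), for 1 h against 0 h and 6 h against 0 h, with Zfp probe sets in red and all tested probe sets in grey. The Zfp bar of the dimmest bin is at -0.22 at 1 h and -0.30 at 6 h, and that of the brightest bin, which holds 12 Zfp probe sets, is at 0.04 at 6 h.

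Zfp genes are clustered in the genome, and the set A members were no exception. Of the 170 genes 40 lie on chromosome 7, 24 on chromosome 17, 18 on chromosome 8 and 11 on chromosome 11, and of 168 that could be placed 61 had another member as a direct neighbour. On chromosome 7, where Zfp235, Zfp329 and Zfp30 lie, the 40 tested probe sets had medians of -0.31 at 1 h and -0.27 at 6 h, with 4 falls and no rise at 6 h. The 21 on chromosome 17 had medians of -0.24 and -0.30, with 6 falls and 1 rise at 6 h. On chromosome 8 the 16 tested probe sets had medians of 0.07 and -0.10 with 1 fall, and on chromosome 11 the 15 had 0.05 and 0.13, with 1 rise. Over all tested probe sets 11.7% fell and 10.4% rose at 6 h. These are descriptions, and members in a cluster can have similar sequences that share probes.

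Different probe sets of the same gene often disagreed. Of 37 Zfp genes with several tested probe sets, 21 had the same sign on all of them at 6 h and 20 at 1 h. In 7 of the 37 at least 1 probe set passed at 6 h, and in none did all of them pass. The same counts were not made over all genes of set A, so nothing particular to the Zfp genes is read from them.

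Genes of the KRAB corepressor machinery were described in the same way. Over 56 tested probe sets of 28 genes of the corepressor machinery the median change was 0.01 at 1 h and -0.07 at 6 h, against -0.01 and -0.05 over all probe sets, with 3 rises (10.4% over all) and 4 falls (11.7% over all) at 6 h and 1 fall at 1 h. Trim28, the corepressor itself, had 2746 ± 72.7 units at 6 h, against 3582 ± 661 at 0 h, short of the threshold (-0.37 ± 0.14, limma adjusted p = 0.0714). Setdb1 had 609 ± 115 units at 6 h, against 667 ± 29.7 at 0 h. The falls at 6 h were of Chd4 (-1.06 ± 0.28) and Mta1 (-0.66 ± 0.17) of the NuRD deacetylase complex, the heterochromatin protein Cbx5 (-0.64 ± 0.18) and the DNA methyltransferase Dnmt3a (-0.66 ± 0.14). The rises were of the Setdb1 partner Atf7ip (0.80 ± 0.25), the histone chaperone Rbbp4 (1.11 ± 0.21) and a Cbx1 probe set, at least 1.32-fold higher than its 0 h arrays, which were all below background. Other tested probe sets of Chd4, Cbx5, Dnmt3a, Rbbp4 and Cbx1 did not pass at 6 h. The brightest of Rbbp4 was at -0.07 ± 0.13 and another at 0.69 ± 0.24, and a dim one of Chd4 was at 0.53 ± 0.33. Those of Dnmt3a lay between -0.41 and -0.17, and those of Cbx5 on both sides of 0.

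Other C2H2 families, picked by symbol start, were set beside the Zfp genes. The 29 tested Zbtb probe sets had a median of -0.00 at 1 h and -0.28 at 6 h, with 2 rises and 6 falls at 6 h. Zbtb11os1, an opposite-strand RNA by name, was 1 of the 6 falls (-0.92 ± 0.24). Over all tested probe sets the medians were -0.01 and -0.05, and 10.4% rose and 11.7% fell at 6 h. Among the Zbtb falls was Zbtb18, once named Zfp238 and needed for cortical development, with 1184 ± 57.8 units at 6 h, against 4342 ± 777 at 0 h (-1.85 ± 0.20, limma adjusted p = 6.42e-05). The larger Zbtb rise was of Zbtb21, with 475 ± 113 units at 6 h, against 99.9 ± 44.6 at 0 h (2.13 ± 0.32, adjusted p = 0.000544). The 8 Zscan probe sets had medians of -0.23 and -0.20 with none past the test (1 at 1 h and 0 at 6 h by limma's unadjusted p under 0.05), and the 8 Zkscan probe sets 0.06 and -0.08 with 1 fall at 6 h. The Zfhx and Zic families had 2 and 3 tested probe sets, with none past the test and 1 Zfhx value at 1 h under an unadjusted 0.05.

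The second array, set B, holds 368 other Zfp probe sets that the choice of genes did not use, and 312 of them were tested. Their median change was -0.32 at 1 h and -0.24 at 6 h, against -0.03 and 0.01 over all set B probe sets. The set B background, taken in the same way as on set A, was 369 units, above the median signal of every set B array (181 to 275 units). These medians thus include many values below background. Set B was noisier, with a median residual SD of 0.73 on the log2 scale, where set A had 0.28, and its arrays numbered 1 hold values below 0 in 27.4% to 28% of probe sets, unlike the others. At 1 h 1 Zfp probe set fell (0.321%) and none rose, against 0.0415% falling and 0.178% rising over all. After 6 h, set against 0 h, 8 fell (2.56%) and 4 rose (1.28%), against 2.80% and 2.20% over all. Set against 1 h, 2 fell (0.641%) and 3 rose (0.962%) at 6 h, against 1.39% and 0.965%. The count at 6 h against 0 h was 3 to 7 without any 1 array of 0 h, array 3 of 1 h or array 2 of 6 h. The call at 1 h was lost without any 1 array of 0 h or array 2 or 3 of 1 h, and the count at 6 h against 1 h was 1 to 3 without array 2 of 0 h, any 1 array of 1 h, or array 2 or 3 of 6 h. Whether the RNA on the sets was the same was not given, so set B may not be independent.

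Of the Zfp genes past the test on set A at 1 h or 6 h, 10 had a tested probe set on set B, and 1 of the 10, Zfp467, passed there. Zfp235 on set B had 418, 387 and 440 units at 1 h, against 512, 368 and 418 at 0 h, a change of -0.08 ± 0.38, where set A was at least 2.20-fold lower. Zfp329 had -0.52 ± 0.54 at 1 h and 0.04 ± 0.54 at 6 h, Zfp213 0.14 ± 0.40 and Zfp318 0.14 ± 0.23 at 6 h, and none passed. Zfp467 did fall on both sets, with 307, 135 and 103 units at 6 h, against 1119, 662 and 664 at 0 h on set B (limma adjusted p = 0.0324). The 6 h arrays were all below the set B background of 369 units, which makes Zfp467 at least 2.09-fold lower on the deposited scale. The set B probe set of Zfp948 was below that background on 8 of 9 arrays and had a change of 1.05 ± 1.14 at 6 h.

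Set B added Zfp genes that set A did not measure. Zfp462, a chromatin protein of embryonic stem and neural cells, had 1169, 1132 and 1122 units at 6 h, against 3974, 3944 and 3454 at 0 h (-1.64 ± 0.19, limma adjusted p = 0.000296), and it was also the probe set past the test at 1 h, with 2322, 1366 and 1424 units (-1.16 ± 0.19). Zfp385b, a relative of Zfp385a, had 1035, 1376 and 816 units at 6 h, while its 0 h arrays, at -55, 121 and 147, were below the set B background, which makes it at least 2.77-fold higher on the deposited scale (adjusted p = 0.00504). Zfp804a, whose human counterpart is known from genetic studies of schizophrenia, had 1292, 801 and 1125 units at 6 h, against 461, 204 and 248 at 0 h, of which 2 were below background, so that the size of its change of 1.81 ± 0.40 is uncertain (adjusted p = 0.0194). Zfp335, a regulator of neural progenitors, had 2622, 1999 and 2031 units at 6 h, against 1341, 875 and 1020 at 0 h (1.12 ± 0.20, adjusted p = 0.00556). Zfp655 also rose (1.34 ± 0.32), and the other falls were Zfp647 (-1.63 ± 0.33), Zfp507 (-0.9996 ± 0.26), Zfp512 (-0.92 ± 0.18), Zfp41 (-0.80 ± 0.17) and 2 probe sets of Zfp827 (-1.26 ± 0.33, and at least 2.58-fold lower on the deposited scale, with all 6 h arrays below background).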

How the data were processed

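RNA of 9 samples per array set was measured on Affymetrix sets A and B, 3 arrays per time of KCl. The authors deposited linear intensities, 1 value per probe set and array; 200 ng of RNA was labelled with biotin, per the labels' protocols, and how the arrays were scanned and summarised is not given in the sources used here. Negative values were replaced by 0, and log2 was taken after adding 16. Array medians spread by 0.24 log2 on set A, which kept its deposited scale, and by 0.56 on set B, which was quantile-normalized. The 64 control probe sets and the 25% with the lowest mean log2 value were left out. A model with 1 mean per time was fitted over all 9 arrays of a set with limma (3.58.1 in R 4.3.3, lmFit and eBayes with an intensity trend), and p-values were adjusted by Benjamini-Hochberg over all tested probe sets, with a threshold of 0.05. The script was tested on simulated data. Where the 3 arrays of 1 time all lay below background, the fold is a lower bound against that level on the log2(signal + 16) scale. The series text speaks of 3 independent experiments, and if arrays do not come from separate cultures, p-values measure only technical spread. The number of arrays limits the precision.

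Members were picked by symbol from the platform annotation, in which 20380 probe sets of set A carry 1 symbol, 691 several and 1555 none here; updating symbols by gene ID gave the same 248. Zfp85os, an opposite-strand RNA by name, falls under the symbol rule and was kept. The members, lists and tests were chosen with earlier results of these data known. Genes were named by rule: up to 10 falls and 10 rises per comparison (at 1 h those with 1 sign in all 3 same-numbered differences, past the test or not), on the brightest probe set of each gene, with the listed roles and the 5 brightest and 3 dimmest members at 0 h. The other probe sets past the test, and the set B genes, were named after their values were seen. A grouping by KRAB domain and finger count was not run, since no protein table was used here. Promoters came from RefSeq windows of 300 bases.

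Same-numbered arrays had correlated deviations of 0.0181 to 0.174 over 9 pairs, 2 of them over 0.1, and the numbers were not taken to pair the arrays. Each of the 9 arrays still correlated best with those of its own number, so pairing is not excluded, and counts with a replicate block are given below. Alternatives changed the added constant, the filter, the normalization, the moderation, the arrays in the fit, the probe sets counted and the covariates. Figures were drawn with matplotlib 3.10.9 in Python 3.11.15.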

Additional observations from a re-analysis of the deposited data

How the results depend on the processing

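The medians at 1 h and at 6 h against 0 h stayed below 0 under each alternative run, that at 6 h against 1 h on set A lay on both sides of 0, and the cause of each shift was not tested. For 6 h against 0 h on set A, the median over all probe sets was below 0 in each run too. At 1 h on set A the 8 Zfp probe sets became 5 with no filter or with the dimmest 50% left out, 4 with only the 6 arrays of the 2 times, 0 with the Gapdh ratio as a covariate, and 4 without members below background at any time, an alternative chosen after seeing the data. The median at 1 h was -0.25 with 1 probe set per gene. After 6 h the 28 became 3 with the Gapdh ratio, while the median was -0.19, against -0.12 over all probe sets. Calls over all probe sets dropped in that fit to 275 up and 195 down, against 1772 and 1981. The Zfp median at 6 h was -0.13 with log2(value + 64) and -0.0911 with the dimmest 50% left out, against -0.0453 and -0.0547 over all probe sets. At 6 h against 1 h the median was 0.0743 with quantile normalization. On set B the deposited scale gave 0 at 1 h and 2 at 6 h against 1 h, with a median of -0.16 at 6 h, and no filter gave 2 at 6 h against 1 h. With a replicate block the counts on set A were 12, 28 and 12 at 1 h, 6 h and 6 h against 1 h, and on set B 3, 23 and 12; every array correlated best with those of its own number, as a hint from the data. Leaving out 1 array at a time gave 4 to 10 at 1 h (median -0.19 to -0.10), 16 to 31 at 6 h (-0.20 to -0.11) and 4 to 13 at 6 h against 1 h (-0.02 to 0.01) on set A. On set B it gave 0 to 1 (-0.32 to -0.22), 3 to 13 (-0.30 to -0.15) and 1 to 6 (0.02 to 0.12). Folds against members below 74.8 units on all arrays of a time are lower bounds.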

Other observations

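The left-out genes Zfp36, Zfp36l1 and Zfp36l2 did not pass limma on set A. The brightest Zfp36l1 probe set had 637 ± 70.7 units at 6 h, against 480 ± 67.6 at 0 h, and the brightest Zfp36l2 probe set 307 ± 94.4 units at 6 h, against 220 ± 74.6 at 0 h. Zfp36 had 121 ± 79.4 units at 6 h, against 141 ± 20.9 at 0 h, with overlapping arrays. The only opposite-strand transcript under the symbol rule, Zfp85os, had 75.9 ± 10.6 units at 6 h, against 101 ± 4.66 at 0 h, and did not pass.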
